A study of Mus musculus with 6 samples.

Results

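Transcripts of the oligodendrocyte lineage and of the myelin sheath were examined in astrocytes that had been sorted from the upper and the deep layers of the neocortex. The members were 33 genes chosen by symbol from a list, out of 43383 rows of the deposited table, and each symbol matched 1 row. The list was drawn up with earlier results of these data known. Upper-layer astrocytes (ULAs) and deep-layer astrocytes (DLAs) were both taken from the somatosensory cortex of male Aldh1l1-eGFP mice at 4 weeks of age, without further treatment, so that every library shares genotype, sex, age and GFP sort and differs in layer and brain. There were 6 libraries, 1 for each layer of each of 3 brains. The transgene places GFP under the Aldh1l1 promoter, which is active in astrocytes, and the sort therefore holds the cells in which that promoter is on, together with any others that pass the gate. Tissue of both layers had been freed of meninges, of layer I and of the underlying corpus callosum, and the border of layers IV and V was lost in the dissection. TRIzol or RNAiso Plus was used to isolate the RNA, and the labels do not say which of them served which library.

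Oligodendrocytes wrap axons in a multilayered membrane, and this membrane is rich in the lipids galactosylceramide and sulfatide and in a small set of abundant proteins. They arise from dividing precursors that carry the PDGF receptor Pdgfra and the proteoglycan Cspg4 (NG2), pass through a premyelinating stage marked by Gpr17 and Bcas1, and then switch on the genes of the sheath under the transcription factors Sox10 and Myrf. In the cortex, myelin is denser in the deep layers than in the upper layers. Several members are not private to this lineage, since carbonic anhydrase 2 (Car2), Olig1 and the crystallin Cryab are also known from astrocytes.

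Values are RPKM, reads on an mRNA per kilobase of its length and scaled to the depth of its library, and levels of different genes are compared on this scale only. The steps of the values put the depth between 24.4 and 26.7 M reads for ULAs and between 19.7 and 29.6 M reads for DLAs. The astrocyte markers were abundant, with Aldoc between 4568 and 5925 RPKM and Slc1a3 between 1790 and 2697 RPKM over the 6 libraries. The 12 astrocyte markers together summed to between 11866 and 12849 RPKM in ULAs and between 11220 and 12035 RPKM in DLAs. The precursor marker Pdgfra and the premyelinating marker Gpr17 reached at most 0.07 RPKM, and Cspg4, the other precursor marker, was between 0.18 and 0.92 RPKM, or 44 to 182 reads per library.

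Part of the members, among them Mbp, Mog, Mag, Gpr37 and Mobp, were more abundant in DLAs than in ULAs, whereas others such as Cnp, Car2, Sirt2, Pllp, Tspan2 and Ermn did not pass the test. Of the 33 members, 27 had a mean of at least 1 RPKM over the 6 libraries and were tested. Of these, 14 were higher in DLAs and 0 were higher in ULAs at an adjusted p under 0.05 (limma on log2(RPKM + 1) with brain and layer as terms, Benjamini-Hochberg adjustment over 13999 rows). Over all rows tested 0.914% were called higher in DLAs and 0.714% higher in ULAs. Because the members were chosen with earlier results known, shares over all rows are given for scale and do not test the list. At an unadjusted p under 0.05, 22 members were higher in DLAs and 0 in ULAs, against 10.8% and 5.64% of all rows. The median log2 difference, DLA minus ULA, was 0.66 over the 27 members and 0.03 over all rows. The DLA value exceeded the ULA value in 3 of 3 brains for 22 of the 27 members (23.2% of all rows), and all 3 DLA values lay above all 3 ULA values for 9 of them (9.27% of all rows). A group of 5 members entered the test with a ULA mean under 1 RPKM, that is, through the DLA libraries, and 2 of these 5 (Opalin and Fa2h) were among the 14. For these 2 the filter favoured the direction of the call, so their adjusted p-values are given as a description. In bulk RNA, a larger number of cells of a type and more RNA per cell of that type cannot be told apart.

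**Figure D1:**
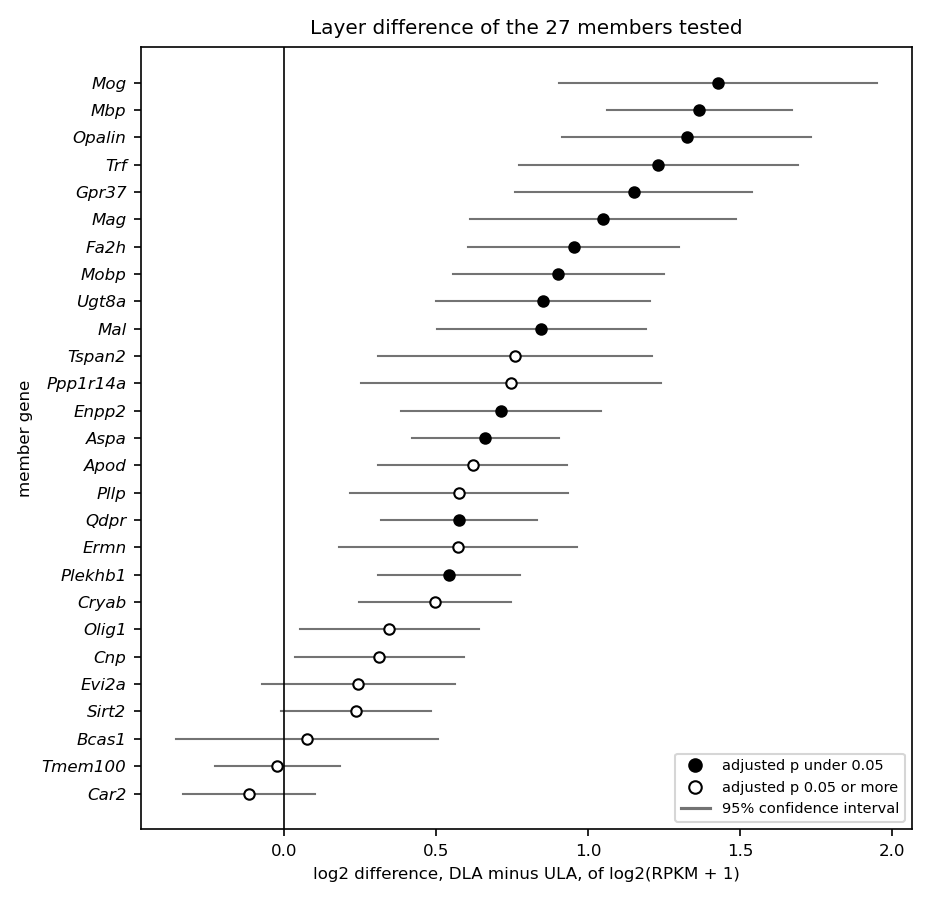
Log2 difference, DLA minus ULA, of log2(RPKM + 1) for the 27 members tested, with the 95% confidence interval from the limma fit over 3 brains. Filled points have an adjusted p under 0.05, and all 14 of them lie to the right of 0, from Plekhb1 at 0.54 to Mog at 1.43.

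The count depended on the pairing and on the brains included. Without the brain as a term 1 member (Mbp) was called, with 0.129% of all rows called higher in DLAs. Without brain 1, brain 2 or brain 3 the count was 10, 8 and 19, against 0.9%, 1.3% and 4.91% of all rows. With no filter on low RPKM, all 33 members were tested among 27963 rows and 0 passed in limma, while 23 members (5.99% of all rows) were higher in DLAs at an unadjusted p under 0.05.

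The stretch of 250 bases upstream of the annotated start was read for the members that RefSeq promoters on GRCm38.p6 covered, which were 21 of the 33. No entry was found for Enpp2, Evi2a, Tmem100, Cryab, Bcas1, Sox10, Mbp, Olig1, Car2, Gpr17, Trf and Fa2h. Letters known from the binding sites of SOX factors (ACAAAG or ACAATG, either strand) occurred in 7 of the 21 (33.3%), against 25.4% of the same stretch in 27025 genes. Letters known from MYRF sites (CTGGCAC or CTGGTAC, either strand) occurred in 3 of the 21, upstream of Cnp, Mag and Mog (14.3%, against 5.88% of all genes). The E-box letters CAGCTG or CATATG (either strand), which OLIG factors can bind, occurred in 2 of the 21 (9.52%, against 15.9%). The SOX and MYRF letters do not overlap one another. A match is a description of the letters and not a bound site. The sequences below belong to 4 members that were higher in DLAs and hold SOX or MYRF letters, and to Cnp, which holds both and did not pass the test. They run from 5′ to 3′ on the strand of the gene and end 1 base before the start of the mRNA, and capitals mark the SOX and MYRF letters on either strand.
Mog, chr17:37023399-37023648, minus strand: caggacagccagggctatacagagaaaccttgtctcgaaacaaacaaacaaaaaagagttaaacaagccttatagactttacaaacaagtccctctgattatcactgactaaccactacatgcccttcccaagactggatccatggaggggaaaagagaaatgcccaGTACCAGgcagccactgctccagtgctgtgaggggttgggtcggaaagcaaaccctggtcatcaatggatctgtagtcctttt
Mag, chr7:30914923-30915172, minus strand: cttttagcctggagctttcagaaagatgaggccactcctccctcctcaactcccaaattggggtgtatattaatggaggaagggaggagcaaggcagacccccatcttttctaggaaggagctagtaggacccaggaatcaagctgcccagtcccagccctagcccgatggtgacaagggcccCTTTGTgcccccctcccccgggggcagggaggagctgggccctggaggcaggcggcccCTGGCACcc
Opalin, chr19:41077114-41077363, minus strand: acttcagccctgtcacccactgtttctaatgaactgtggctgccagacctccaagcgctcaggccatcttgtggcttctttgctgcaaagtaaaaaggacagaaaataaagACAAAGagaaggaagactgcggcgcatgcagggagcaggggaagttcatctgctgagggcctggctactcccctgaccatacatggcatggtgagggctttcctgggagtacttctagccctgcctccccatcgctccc
Mobp, chr9:120149492-120149741, plus strand: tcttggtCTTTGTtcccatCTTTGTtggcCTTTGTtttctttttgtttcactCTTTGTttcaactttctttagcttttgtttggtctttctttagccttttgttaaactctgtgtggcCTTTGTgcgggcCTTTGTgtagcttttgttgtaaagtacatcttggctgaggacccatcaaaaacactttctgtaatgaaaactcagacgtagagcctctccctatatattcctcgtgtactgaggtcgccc
Cnp, chr11:100574689-100574938, plus strand: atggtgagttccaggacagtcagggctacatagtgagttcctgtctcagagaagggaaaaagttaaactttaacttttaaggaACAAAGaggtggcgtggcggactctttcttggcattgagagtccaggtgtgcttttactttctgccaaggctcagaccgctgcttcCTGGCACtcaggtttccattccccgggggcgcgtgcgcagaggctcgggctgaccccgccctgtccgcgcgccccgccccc

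The Mobp stretch holds 6 SOX matches, between 243 and 120 bases from the start. Mag holds the MYRF letters 9 bases and the SOX letters 67 bases from the start. Mog holds 1 MYRF match at 83 bases, Opalin 1 SOX match at 139 bases, and Cnp a MYRF match at 81 and a SOX match at 167 bases. The coordinates are those of GRCm38.p6 and were not carried over to the deposited table, which is on mm9.

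The genes of compact and paranodal myelin came first. Of 6 such members 5 were tested and 3 were higher in DLAs (Mbp, Mobp and Mal), with a median log2 difference of 0.85 over the 5. Mbp encodes myelin basic protein, which zips the cytoplasmic faces of the membrane together. Its level was 14.95, 10.5 and 15.87 RPKM in ULAs of brains 1, 2 and 3, and 35.24, 37.97 and 36.54 RPKM in DLAs. The DLA libraries were close to one another and all lay well above the highest ULA library. The log2 difference was 1.37 (SE 0.14, adjusted p = 0.0014, limma), the smallest adjusted p among the members, and Mbp was the one member that passed without the brain as a term. Mobp, the myelin-associated oligodendrocyte basic protein, was measured at 1.18, 0.9 and 2.71 RPKM in ULAs and 2.98, 3.22 and 4.98 RPKM in DLAs. Here too the groups did not overlap, but the ULAs of brain 3 came close to the lowest DLA library. Its log2 difference was 0.90 (SE 0.16, adjusted p = 0.0187), and it did not pass without brain 2 (adjusted p = 0.052). The proteolipid gene Mal, whose product sorts proteins into raft-like membrane, stood at 3.53, 2.24 and 8.53 RPKM in ULAs against 5.63, 6.62 and 15.1 RPKM in DLAs. The groups overlapped, since brain 3 was the highest in each layer, while DLAs were higher within each brain. The log2 difference of Mal was 0.85 (SE 0.15, adjusted p = 0.0259), and without brain 2 it was 0.65 (adjusted p = 0.0528).

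Plasmolipin (Pllp), a tetraspan membrane protein of the sheath, ranged from 0.42 to 0.98 RPKM in ULAs and from 1.15 to 1.76 RPKM in DLAs and did not pass (log2 difference 0.58, adjusted p = 0.117). Tspan2, a tetraspanin, ranged from 0.45 to 3.09 RPKM in ULAs and from 2.29 to 3.59 RPKM in DLAs, with a log2 difference of 0.76 (adjusted p = 0.104). The ULAs of brain 3 lay inside the range of the DLAs, and without brain 3 the log2 difference was 1.06 (adjusted p = 0.00113). It was 0.67 without brain 1 (adjusted p = 0.179) and 0.55 without brain 2 (adjusted p = 0.281). Cldn11, the claudin of the radial component of myelin, was below the limit for the test, at 0.12 to 0.77 RPKM in ULAs and 0.51 to 1.57 RPKM in DLAs.

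**Figure D2:**
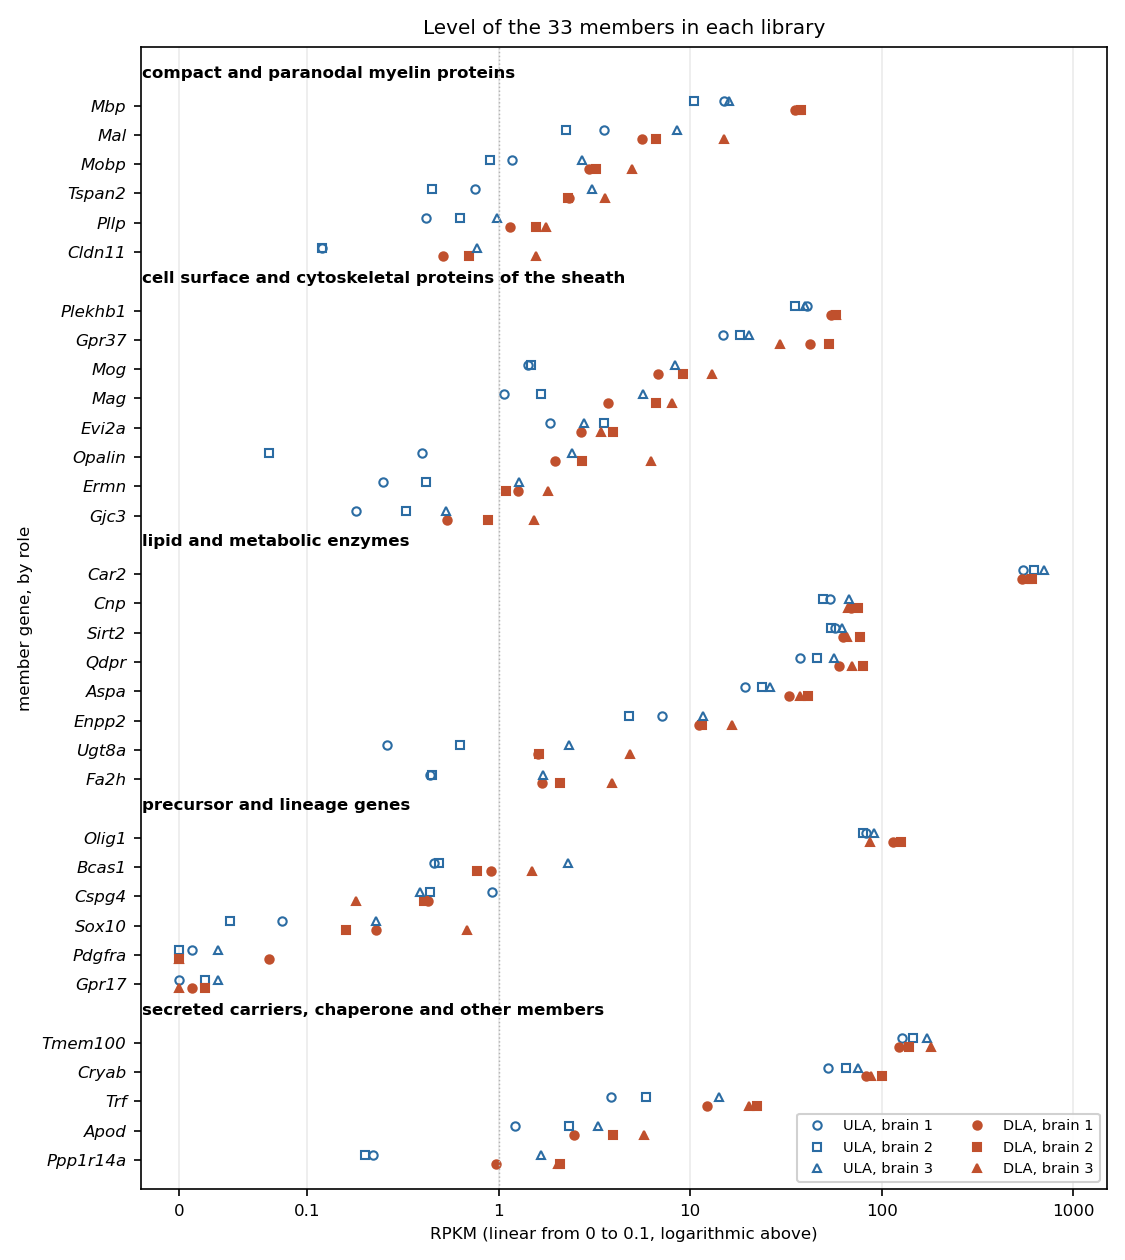
RPKM of the 33 members in each of the 6 libraries, grouped by role and ordered by mean level, on an axis that is linear from 0 to 0.1 and logarithmic above, where the dotted line marks 1 RPKM. Levels run from Gpr17 and Pdgfra near 0 to Car2 above 500 RPKM, and for Mog, Mag, Tspan2 and Ppp1r14a the ULA triangle (brain 3) sits apart from the other ULA symbols.

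Among 8 genes for cell surface and cytoskeletal proteins of the sheath, 7 were tested and 5 were higher in DLAs (Mog, Mag, Opalin, Gpr37 and Plekhb1), with a median log2 difference of 1.05. Mog encodes the myelin oligodendrocyte glycoprotein on the outermost lamella. In the main fit, with a pseudocount of 1, it had the largest log2 difference of the members tested. With a pseudocount of 0.1 Opalin came above it (2.48 against 1.78). Without brain 1, Mbp (1.46) and Opalin (1.44) were above Mog (1.30). Mbp was also above Mog without brain 2 (1.17 against 1.12) and with a correction for mRNA length (1.46 against 1.33). In ULAs Mog was listed at 1.43, 1.48 and 8.37 RPKM and in DLAs at 6.76, 9.14 and 12.95 RPKM. The ULAs of brain 3 were above the DLAs of brain 1, so the groups overlapped, but within each brain DLAs were higher. The log2 difference was 1.43 (SE 0.23, adjusted p = 0.0153). Mag, the adhesion molecule of the innermost lamella that faces the axon, followed the same order of libraries, with 1.07, 1.66 and 5.66 RPKM in ULAs and 3.73, 6.62 and 8.01 RPKM in DLAs. The log2 difference of Mag was 1.05 (SE 0.20, adjusted p = 0.0287), and it did not pass without brain 2 (0.81, adjusted p = 0.0793). Opalin, a sialylated membrane protein at the paranodal loops, was scarce, at 0.4, 0.07 and 2.43 RPKM in ULAs and 1.97, 2.73 and 6.28 RPKM in DLAs. The ULAs of brain 3 were above the DLAs of brain 1, and the other ULA libraries were far below both. By the recovered depth, the value of Opalin in the ULAs of brain 2 rested on 2 reads and that in the DLAs of brain 3 on 166 reads. Its log2 difference was 1.32 (SE 0.18, adjusted p = 0.00751) with a pseudocount of 1. Opalin entered the test through the DLA libraries, so this adjusted p is a description.

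The other members of this class that passed were more abundant. Gpr37, an orphan receptor of differentiating oligodendrocytes, stood at 14.91, 18.18 and 20.2 RPKM in ULAs and 42.01, 53.02 and 29.4 RPKM in DLAs. All 3 DLA libraries were above all 3 ULA libraries, and the DLAs of brain 3 were the lowest of their layer. The log2 difference of Gpr37 was 1.15 (SE 0.17, adjusted p = 0.011). Plekhb1, a pleckstrin homology domain protein, was measured at 40.86, 35.27 and 39.62 RPKM in ULAs and 54.42, 57.83 and 57.57 RPKM in DLAs. The libraries of each layer were close together and the layers did not overlap. Its log2 difference of 0.54 (SE 0.10, adjusted p = 0.0322) was the smallest among the 14, and it did not pass without brain 1 (adjusted p = 0.0634) or brain 2 (adjusted p = 0.0649).

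Ermn (ermin), which binds actin in the cytoplasmic loops, ranged from 0.25 to 1.28 RPKM in ULAs and from 1.09 to 1.82 RPKM in DLAs, and its log2 difference of 0.57 did not pass (adjusted p = 0.151). Evi2a, a small transmembrane gene within an intron of Nf1, gave 0.24 (adjusted p = 0.426), and 19.3% of its exon bases lie in exons of Evi2b on the same strand, so that reads on that stretch cannot be assigned to 1 of them. Gjc3, a connexin of oligodendrocytes, had too low a mean for the test, with 0.18, 0.33 and 0.53 RPKM in ULAs and 0.54, 0.88 and 1.53 RPKM in DLAs.

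Of the 8 lipid and metabolic enzymes, all tested, 5 were higher in DLAs (Fa2h, Ugt8a, Enpp2, Aspa and Qdpr), with a median log2 difference of 0.62. Ugt8a makes galactosylceramide and Fa2h hydroxylates the fatty acids that enter it. Ugt8a was listed at 0.26, 0.63 and 2.33 RPKM in ULAs and at 1.6, 1.63 and 4.88 RPKM in DLAs, a log2 difference of 0.85 (SE 0.16, adjusted p = 0.0279) that did not pass without brain 1 (0.76, adjusted p = 0.0863). The ULAs of brain 3 were above the DLAs of brains 1 and 2. For Fa2h they were level with the DLAs of brain 1, at 0.44, 0.45 and 1.7 RPKM against 1.68, 2.09 and 3.93 RPKM, with a log2 difference of 0.95 (SE 0.16, adjusted p = 0.0149). Fa2h, like Opalin, entered the test through the DLA libraries, and its adjusted p is a description. With a pseudocount of 0.1 the log2 difference was 1.51 for Ugt8a and 1.63 for Fa2h. Enpp2 (autotaxin), which makes lysophosphatidic acid and is secreted by differentiating oligodendrocytes, stood at 7.17, 4.81 and 11.69 RPKM in ULAs and 11.1, 11.57 and 16.44 RPKM in DLAs. The groups overlapped through the ULAs of brain 3. The log2 difference of Enpp2 was 0.71 (SE 0.15, adjusted p = 0.0454), and without brain 2 it was 0.51 (adjusted p = 0.0901).

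Aspa cleaves N-acetylaspartate and so supplies acetate for myelin lipids. It was found at 19.4, 23.78 and 26.16 RPKM in ULAs and 32.77, 40.98 and 37.42 RPKM in DLAs, without overlap. The log2 difference was 0.66 (SE 0.11, adjusted p = 0.0148), and without brain 1 the adjusted p was 0.0597. Qdpr, dihydropteridine reductase, which regenerates tetrahydrobiopterin, rose from 37.66, 46.21 and 56.44 RPKM in ULAs to 59.49, 80.17 and 69.67 RPKM in DLAs, again without overlap. Its log2 difference was 0.58 (SE 0.12, adjusted p = 0.0396), and it was not called without brain 1 (adjusted p = 0.15) or brain 2 (adjusted p = 0.0849).

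The 3 enzymes that did not pass were among the most abundant members. Car2, carbonic anhydrase 2, had the highest mean of all members, at 547.13, 622.74 and 699.48 RPKM in ULAs and 540.55, 607.47 and 570.97 RPKM in DLAs. In each brain the ULA library was the higher one, and the log2 difference of -0.12 had a 95% confidence interval of -0.33 to 0.10 (adjusted p = 0.595). Cnp, the cyclic nucleotide phosphodiesterase that keeps cytoplasmic channels open in myelin, was measured at 53.55, 49.43 and 67.71 RPKM in ULAs and 69.05, 75.33 and 66.79 RPKM in DLAs. DLAs were higher in brains 1 and 2, and in brain 3 the layers were nearly equal. The log2 difference of Cnp was 0.31 (adjusted p = 0.253), and without brain 3 it was 0.48 (adjusted p = 0.0125). It was 0.29 without brain 1 (adjusted p = 0.814) and 0.17 without brain 2 (adjusted p = 0.589). Sirt2, a tubulin deacetylase of myelin, stood at 56.74, 54.59 and 61.87 RPKM in ULAs and 62.42, 77.13 and 65.68 RPKM in DLAs. Its layers did not overlap, yet the log2 difference of 0.24 did not pass (95% confidence interval -0.01 to 0.48, adjusted p = 0.323). Without brains 1, 2 and 3 the log2 difference of Sirt2 was 0.29, 0.11 and 0.31, and it did not pass. For Sirt2, 8.0% of the exon bases lie opposite exons of Gm19897, and the library kit does not keep the strand.

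None of the 6 precursor and lineage genes passed, and 2 of them were tested. Olig1, a basic helix-loop-helix factor of the lineage, was by far the most abundant, at 82.98, 79.96 and 90.81 RPKM in ULAs and 114.14, 125.49 and 87.19 RPKM in DLAs. DLAs were higher in brains 1 and 2 and lower in brain 3. The log2 difference was 0.35 (SE 0.13, adjusted p = 0.235), and 0.55 without brain 3 (adjusted p = 0.00264). It was 0.29 without brain 1 (adjusted p = 0.807) and 0.20 without brain 2 (adjusted p = 0.55). Bcas1, a marker of the stage just before and during myelination, was listed at 0.46, 0.49 and 2.31 RPKM in ULAs and 0.91, 0.77 and 1.5 RPKM in DLAs. Its highest library was the ULAs of brain 3, and the log2 difference of 0.08 (95% confidence interval -0.35 to 0.51, adjusted p = 0.88) turned to -0.078 without brain 1 and to -0.0086 without brain 2. Antisense exons of 1 other gene cover 14.2% of the exon bases of Bcas1, and those of 1700040N02Rik cover 1.1%.

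The other lineage genes had means under 1 RPKM. Sox10, which stays on from the precursor to the mature cell, was at 0.08, 0.04 and 0.23 RPKM in ULAs and 0.23, 0.16 and 0.68 RPKM in DLAs, higher in DLAs within each brain. Pdgfra was listed at 0.01, 0 and 0.03 RPKM in ULAs and at 0.07, 0 and 0 RPKM in DLAs. Gpr17 was listed at 0, 0.02 and 0.03 RPKM in ULAs and at 0.01, 0.02 and 0 RPKM in DLAs. Both therefore sat at a handful of reads per library, with no order between the layers. Cspg4, which pericytes also express, went the other way, with 0.92, 0.44 and 0.39 RPKM in ULAs and 0.43, 0.41 and 0.18 RPKM in DLAs.

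Among the secreted carriers, the chaperone and the remaining members, 1 of 5 was higher in DLAs. This was Trf, transferrin, the iron carrier that oligodendrocytes secrete, at 3.88, 5.88 and 14.14 RPKM in ULAs and 12.21, 22.37 and 20.29 RPKM in DLAs. The ULAs of brain 3 were above the DLAs of brain 1. The log2 difference of Trf was 1.23 (SE 0.21, adjusted p = 0.0162). Apod, the lipid carrier apolipoprotein D, ranged from 1.22 to 3.31 RPKM in ULAs and from 2.48 to 5.74 RPKM in DLAs, with a log2 difference of 0.62 (adjusted p = 0.0615). Cryab, the small heat shock protein alpha B-crystallin, was found at 52.32, 65.3 and 75.02 RPKM in ULAs and 82.52, 100.87 and 87.87 RPKM in DLAs. Its layers did not overlap, and the log2 difference of 0.50 (adjusted p = 0.0624) was 0.63 without brain 3 (adjusted p = 0.00058). It was 0.42 without brain 1 (adjusted p = 0.446) and 0.44 without brain 2 (adjusted p = 0.12). Ppp1r14a, an inhibitor of myosin phosphatase, ranged from 0.2 to 1.67 RPKM in ULAs and from 0.97 to 2.09 RPKM in DLAs (log2 difference 0.75, adjusted p = 0.139). Without brain 3 it gave 1.03 (adjusted p = 0.00374), without brain 1 0.77 (adjusted p = 0.083) and without brain 2 0.44 (adjusted p = 0.403). Tmem100, a small membrane protein, was the member with the next highest level after Car2, at 128.37, 145.43 and 173.05 RPKM in ULAs and 123.63, 138.31 and 180.82 RPKM in DLAs. The layers overlapped fully, and its log2 difference was -0.02 (95% confidence interval -0.23 to 0.19, adjusted p = 0.935).

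**Figure D3:**
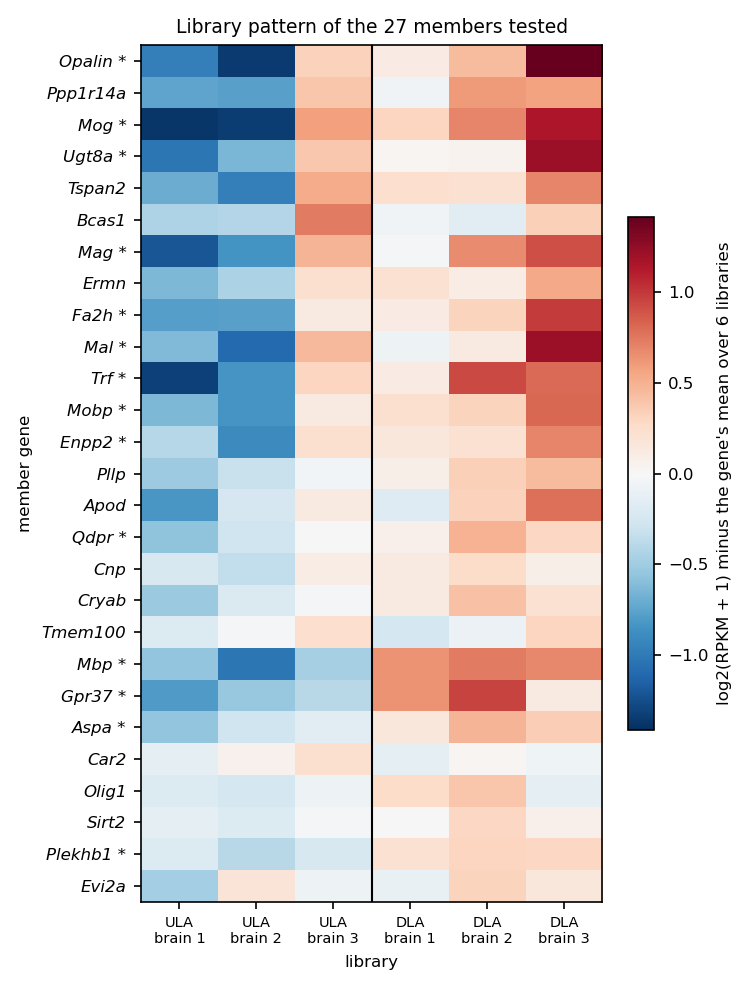
Heat map of the 27 members tested (rows, ordered by the ULA ratio of brain 3 to brains 1 and 2) over the 6 libraries (columns), coloured by log2(RPKM + 1) minus the mean of the gene over the libraries, with an asterisk at the 14 members that passed. In the upper rows the ULAs of brain 3 have the colour of the DLA columns, whereas Mbp, Gpr37, Aspa and Plekhb1 are below their mean in all 3 ULA libraries.

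The ULA library of brain 3 stood apart for the scarce myelin genes. In 12 of the 27 members tested it was at least 2 times the mean of the other ULA libraries, against 1.05% of all rows, and 8 of these 12 were among the 14 higher in DLAs (Opalin, Mog, Ugt8a, Mag, Fa2h, Mal, Trf and Mobp). The other 4 were Ppp1r14a, Tspan2, Bcas1 and Ermn. The limit of 2 times was chosen after the values had been seen. Summed over the 12 members, the level was 13.87, 14.87 and 54.22 RPKM in ULAs of brains 1, 2 and 3, and 42.04, 60.66 and 85.36 RPKM in DLAs. The ULAs of brain 3 thus held a sum between those of the DLAs of brains 1 and 2, and brain 3 was the highest in each layer. The deep/upper ratio of this sum was 3.03, 4.08 and 1.57 in brains 1, 2 and 3.

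The abundant members did not share this pattern. The 5 members that were higher in DLAs and whose ULA value in brain 3 was under 1.5 times that of the other brains were Mbp, Gpr37, Plekhb1, Aspa and Qdpr. Their summed level was 127.78, 133.94 and 158.29 RPKM in ULAs and 223.93, 269.97 and 230.6 RPKM in DLAs, without overlap, and the deep/upper ratio was 1.75, 2.02 and 1.46. Enpp2 lay between these limits at 1.95 times. Brain 3 gave the smallest deep/upper ratio for 22 of the 27 members tested and for 12 of the 14, against 37.1% of all rows. The median ratio of brain 3 to the mean of brains 1 and 2 was 1.87 in ULAs and 1.33 in DLAs over the members, and 1.01 in each layer over all rows.

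**Figure D4:**
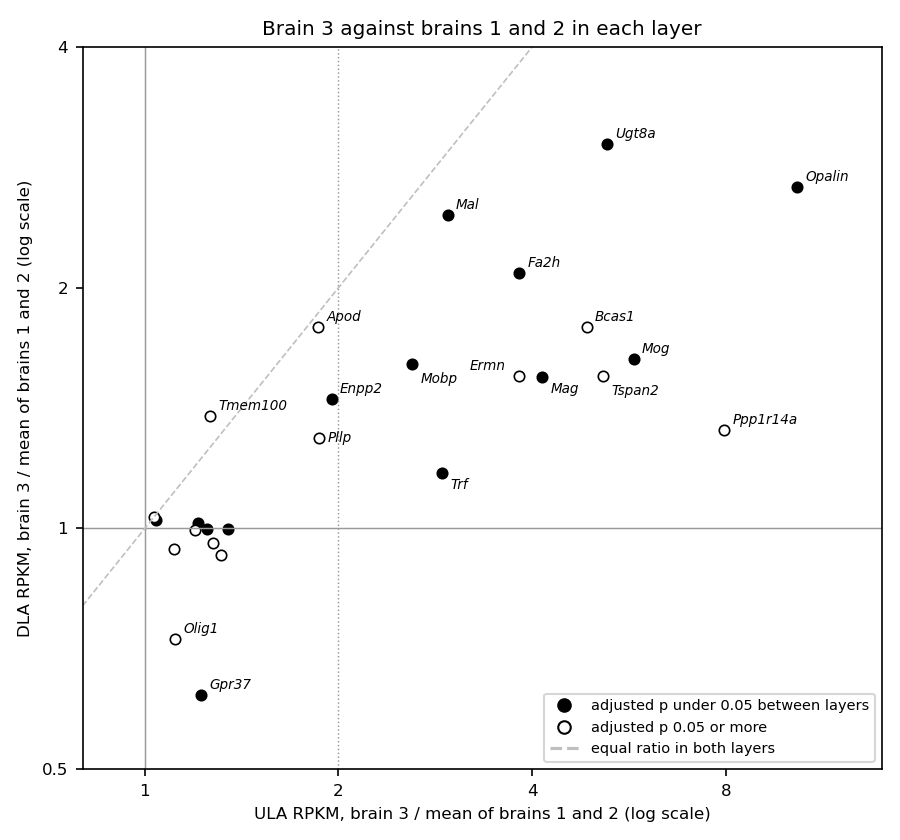
RPKM of brain 3 divided by the mean of brains 1 and 2, in ULAs (horizontal) and in DLAs (vertical), both on log scales, for the 27 members tested, with filled points for the 14 that passed between layers and a dotted line at 2 times. Opalin lies farthest to the right at 10.3 times, Gpr37 lies lowest at 0.619 times, and the unnamed points near the crossing of the lines at 1 are Mbp, Plekhb1, Aspa, Qdpr, Cnp, Sirt2, Cryab, Car2 and Evi2a.

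Further genes of the lineage that are not members showed fewer differences. These lists were also chosen with earlier results of these data known, so the contrast with the members is a description. From a list of 50 other mature oligodendrocyte and myelin genes, 49 were in the table, 25 were tested, 1 was higher in DLAs and 0 in ULAs, with a median log2 difference of 0.04. The gene that passed was Padi2, which converts arginine to citrulline in myelin basic protein, at 5.29, 8.39 and 5.91 RPKM in ULAs and 13.13, 21.17 and 12.03 RPKM in DLAs (log2 difference 1.11, SE 0.12, adjusted p = 0.00261). All 3 DLA libraries were above the ULA libraries, and brain 3 was not raised in ULAs. Lgi3, Nfasc, Lpar1 and Cd82 had all 3 DLA values below all 3 ULA values (4 of the 25, against 6.59% of all rows) and did not pass. Their log2 differences were -0.46, -0.45, -0.42 and -0.27, with adjusted p = 0.0942 for Lgi3 and higher values for the others. Omg, Cmtm5, Tmem88b and Padi2 had all 3 DLA values above (4 of the 25, against 9.27% of all rows). Of 30 other precursor and early lineage genes, 16 were tested and 1 was higher in DLAs, with a median of 0.03. This was Nkx2-2, a homeodomain factor of the lineage, at 2.4, 2.19 and 2.4 RPKM in ULAs and 4.85, 6.04 and 4.7 RPKM in DLAs (log2 difference 0.89, SE 0.15, adjusted p = 0.0153). Its layers did not overlap. Tmem179 (-0.27, adjusted p = 0.395) and Rlbp1 (-0.21, adjusted p = 0.357) had all 3 DLA values below and did not pass. The summed level of the 49 mature genes, between 1561 and 1672 RPKM in ULAs and between 1700 and 1896 RPKM in DLAs, was set largely by Omg, Cmtm5 and Cd9, which were above 250 RPKM in each library and did not pass. Without brain 3, 7 of the further genes were higher in DLAs and 1 in ULAs.

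Markers of other cells were followed beside the members. Of the 12 astrocyte markers, all tested, Gfap was higher in DLAs (log2 difference 0.93, adjusted p = 0.00556) and 0 were higher in ULAs, with a median log2 difference of 0.08. The list went both ways, since Slc1a3 (log2 difference -0.42, adjusted p = 0.0554), Fgfr3 (-0.41, adjusted p = 0.057), Gja1 (-0.27, adjusted p = 0.192) and Slc1a2 (-0.21, adjusted p = 0.346) had all 3 DLA values below all 3 ULA values and did not pass. S100b (0.28, adjusted p = 0.194) had all 3 DLA values above, as did Gfap. Over all rows, 6.59% had all 3 DLA values below and 9.27% had all 3 above. Of 14 neuronal markers 4 were tested and 0 passed, with Eno2 and Syp at most at 10.45 RPKM and summed levels of 21.03 to 25.38 RPKM in ULAs and 17.75 to 20.56 RPKM in DLAs. The median log2 difference of the 4 was -0.28, and none was positive. Eno2 (-0.56, adjusted p = 0.107) and Camk2a (-0.38, adjusted p = 0.293) had all 3 DLA values below all 3 ULA values. The microglial marker P2ry12 was at 12.07, 11.63 and 12.6 RPKM in ULAs and 10.08, 7.76 and 10.22 RPKM in DLAs and did not pass (log2 difference -0.35, adjusted p = 0.199). None of the 10 endothelial markers reached the limit for the test, Esam and Cldn5 being the highest, and their sums were 1.54 to 2.44 RPKM in ULAs and 1.01 to 4.22 RPKM in DLAs. Of 9 mural markers, Cspg4 among them, 2 were tested (Pdgfrb and Rgs5), of which Rgs5 was higher in ULAs (log2 difference -0.77, adjusted p = 0.0455). Rgs5 entered the test through the ULA libraries (mean 2.25 RPKM, against 0.897 RPKM in DLAs), so its adjusted p is a description. The sums of the mural markers were 16.52 to 24.06 RPKM in ULAs and 12.19 to 19.56 RPKM in DLAs.

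Blood transcripts differed in level between the layers. Of the 4 blood markers in the table, Hbb-b1, Hbb-b2 and Beta-s are near-identical globin genes whose reads cannot be divided with certainty, so they are not counted as separate calls. All 3 reached the limit for the test only through the DLA libraries, and they are given as levels. The ULA libraries all list Hbb-b1 and Hbb-b2 at 0. The summed level was 1.44, 0.94 and 1.79 RPKM in ULAs and 15.35, 16.02 and 76.71 RPKM in DLAs, with the DLAs of brain 3 the highest. Alas2, an enzyme of haem synthesis in red cells, did not pass (log2 difference 0.22, adjusted p = 0.612). The part of blood RNA in the difference of the members was not tested.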

How the data were processed

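RNA of ULAs and DLAs from 3 brains was converted with the SMART-Seq kit, made into Nextera XT libraries and sequenced as single reads. The authors deposited RPKM per library, cut to 2 decimals, for 43383 rows with mRNA lengths, of which 15420 are listed at 0 in all 6 libraries. The submitters' processing notes name mm9, bcl2fastq 1.8.4 and CASAVA 1.8.2; the aligner and counter are not given in the sources used here. Values in rows of up to 500 bases gave the depth, with 99.8% to 100% of them whole reads at the chosen step (within 0.011 RPKM of the cut value) and at most 80.3% at the next best.

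Rows with a mean of at least 1 RPKM (13999) were compared on log2(RPKM + 1), a scale that understates changes of low genes, with limma 3.58.1 in R 4.3.3 (brain and layer as terms, intensity trend, 2-sided, Benjamini-Hochberg). The brain number comes from the labels: 177 of 177 rows of the study's per-brain lists were identical to the deposited values under that numbering, and same-numbered libraries deviated together (r over genes 0.42, 0.33 and 0.34, against -0.20 to -0.16 for others) and the brain was therefore kept as a term. With the brain as a term, the p-values rest on how far the layer difference varied between these 3 brains. limma draws the variance of each row towards a trend over all rows. Read numbers are estimates that serve as precision only.

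The members and lists were chosen with earlier results of these data known. Every member is named; members that passed, the 6 most abundant and the 6 lineage genes are given in every library, and of the other lists the genes that passed and the most abundant ones are named. Promoters came from RefSeq. Alternatives were no brain term, a pseudocount of 0.1, no filter, a mean of at least 5 RPKM, median centring, quantile normalization, a loess correction for mRNA length, no trend, an adjusted p under 0.1 and each brain left out. The model was also run on simulated data, and no call reported here rests on that run. Results that need certain further rows are not reported here. Python 3.11.15, pandas 2.3.3, numpy and matplotlib were used for tables and figures.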

Additional observations from a re-analysis of the deposited data

How the results depend on the processing

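Members higher in DLAs numbered 14, and the count under the alternatives was 1 without the replicate block, 0 with no filter on low RPKM, 7 with the correction for mRNA length and 7 without the variance trend. It was 10 with quantile normalization or a mean of at least 5 RPKM (15 members tested), 12 with median centring, 13 with a pseudocount of 0.1, 16 at an adjusted p under 0.1, and 8 to 19 with 1 brain left out. Quantile normalization called 0.736% of all rows higher in DLAs, and a mean of at least 5 RPKM 1.62%. Median centring called 0.843% and a pseudocount of 0.1 called 0.9%. No alternative called a member higher in ULAs. Mbp lost its call only with no filter (adjusted p = 0.3), whereas Qdpr and Enpp2 lost theirs under 8 of 12 alternatives, Plekhb1 under 7 and Mag under 6. Mal lost its call under 5 alternatives, Trf and Aspa under 4, and Mog, Mobp and Ugt8a under 3. Opalin, Fa2h and Gpr37 lost theirs under 2. Members with a mean under 5 RPKM had 11 alternatives. The sign of 2 members near 0 turned: Bcas1 (0.08) ran from -0.078 to 0.32 and Tmem100 (-0.02) from -0.063 to 0.0046 with 1 brain left out. The 2 further lineage genes higher in DLAs became 1 without the block, 0 with no filter, 3 at an adjusted p under 0.1 and 2 to 7 with 1 brain left out, and the 0 higher in ULAs became 1 at an adjusted p under 0.1 and 0 to 1 with 1 brain left out.

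Over all rows, 128 higher in DLAs and 100 higher in ULAs became 18 and 23 without the block, 0 and 0 with no filter, 77 and 77 with the length correction, 79 and 65 without the trend, and 255 and 209 at an adjusted p under 0.1. With 1 brain left out the ranges were 126 to 687 and 104 to 426, and quantile normalization turned the balance to 103 and 138. A pseudocount of 0.1 raised the log2 difference by over 1.5 times for Opalin (2.48), Fa2h (1.63), Ugt8a (1.51), Tspan2 (1.28), Pllp (1.08), Ermn (1.21), Ppp1r14a (1.63) and Bcas1 (0.27). The causes of these changes were not tested. Dropping the filter changed both the number of rows, from 13999 to 27963, and the unadjusted p, which for Mbp went from 1.71e-06 to 0.000537. Values under 1 RPKM can rest on few reads, as for Opalin in the ULAs of brain 2. Such values limit what can be said of the 6 members that were not tested. Among these 6, Cspg4 has a long mRNA and had 44 to 182 reads per library.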

Other observations

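Tsc22d3, a leucine zipper gene induced by glucocorticoids, was the row outside all the lists reported here whose libraries were ordered most like those of Mog (Pearson's r = 0.97 over 6 libraries on log2(RPKM + 1), among 293 RefSeq rows that varied enough between libraries). In brains 1, 2 and 3 its level was 126.75, 138.62 and 258.02 RPKM in ULAs, against 242.26, 225.46 and 357.94 RPKM in DLAs, so that the ULAs of brain 3 lay within the DLA range, as for Mog. Rpe65, the retinoid isomerohydrolase, had r = 0.92, with 11.09, 16.53 and 25.15 RPKM in ULAs and 24.35, 28.64 and 49.58 RPKM in DLAs. Both rows were picked with their values in view, the libraries are paired by brain, and r is given as a description.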
